A study of Mus musculus with 8 samples.

Results

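The proteasome genes were taken as every row of the deposited liver table whose symbol starts with Psma, Psmb, Psmc, Psmd, Psme, Psmf or Psmg and a digit, which gave 50 of 16640 genes. The table compares livers of 4 WT mice with livers of 4 mice labelled as lacking Huwe1 in the liver only, called Huwe1 KO here. All 8 mice were 1 year old and ate chow at will, and total RNA of whole liver was sequenced. The sources used here do not name the Cre line or promoter behind the deletion, the deleted exons, the sex or the strain. For each gene the authors' deposited table holds 1 depth-normalized value per group, in normalized reads, with a log2 fold change of Huwe1 KO over WT and p-values. Levels below are therefore the authors' group values with no spread per liver, and errors come from the deposited p, as a standard error (SE) or a 95% interval of the log2 fold change.

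The proteasome degrades proteins that carry ubiquitin chains, and Huwe1 encodes a HECT-type ubiquitin ligase that builds such chains. Its core, the 20S particle, is a stack of rings made of alpha subunits (Psma genes) and beta subunits (Psmb genes), and its cap, the 19S particle, binds, unfolds and feeds in substrates (Psmc ATPases and Psmd subunits). Cells exposed to interferon replace the catalytic beta subunits by immunoproteasome forms, and other proteins (Psme, Psmf and Psmg genes) activate, inhibit or assemble the particle.

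The group values summed to 17347886 normalized reads in WT and 17533080 in Huwe1 KO. In the authors' deposited table Huwe1 itself stood at 2666 in WT and 1784 in Huwe1 KO (log2 fold change -0.58, SE 0.13, adjusted p = 0.000425 in DESeq2), and this value also counts reads from cells other than hepatocytes. All 8 hepatocyte markers were abundant in both groups, the lowest being Hnf4a at 8990.2 in WT in the deposited table. Of these markers 6 lay above 0 and 3 rose in the deposited DESeq2 result (Apoa1 with a log2 fold change of 0.52, Serpina1a with 0.49 and Hnf4a with 0.37), their median was 0.32 and their summed value in Huwe1 KO was 133% of WT. The 3 calls are 37.5% of the 8, beside 4.41% of all genes called higher. The 2 markers below 0 were Tat (25942 to 18546.5, log2 fold change -0.48, adjusted p = 0.286 in DESeq2) and Apob (log2 fold change -0.03). Alb held most of the summed value, at 1.19e+06 of 1.71e+06 in WT, and did not pass (log2 fold change 0.45, adjusted p = 0.0631). Most of these markers thus lay on the other side of 0 from most proteasome genes, and their part in the proteasome values was not tested. In whole tissue, fewer cells of a type and less RNA per cell cannot be told apart.

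Most constitutive proteasome genes were slightly lower in Huwe1 KO, and few passed the test. Of the 50 genes, 6 were lower and 0 higher at an adjusted p under 0.05 in the authors' deposited DESeq2 result. The 6 were Psmd11, Psmd5, Psmd14, Psmd1, Psmd2 and Psma1. Without adjustment, 15 were lower and 2 higher at a p under 0.05. Over all genes, 5.56% were called lower and 4.41% higher, and among the 2200 genes with a mean value in the range of the constitutive subunits (629 to 2063) 11.7% were called lower and 6.09% higher. Of the 31 constitutive subunits that set this range, 5 (16.1%) were called lower, and of all 50 genes, which include lower levels, 12.0%. An unadjusted p under 0.05, in either direction, was found in 17 of the 50 genes, 739 of the 2200 and 3408 of all 16640. A log2 fold change below 0 was found in 35 of the 50 genes (70%) and above 0 in 15. Over all genes 46.9% lay below 0, and over the genes of like level 58.5%. The median of the 50 was -0.13, against a median of 0.02 over all genes and -0.05 over the genes of like level. With the 2080 most abundant genes centred on 0, 30 lay below and 20 above 0 and the median was -0.044. The 5 that changed sign were Psmd10, Psmd12, Psmc2, Psmb3 and Psmg4, none of which was called. With the median of genes of the same length and level removed, 32 of 47 lay below 0 and the median was -0.039.

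**Figure D1:**
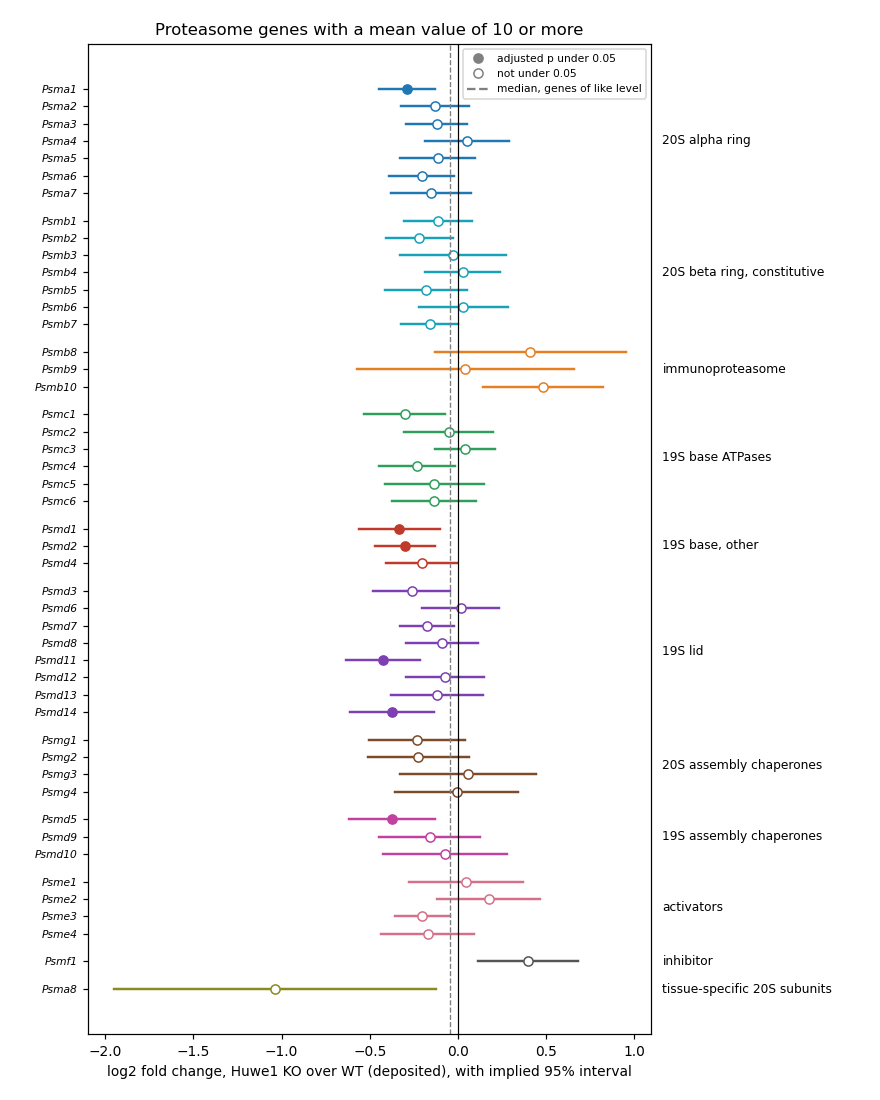
Deposited log2 fold change of Huwe1 KO over WT (horizontal axis) for the 47 proteasome genes with a mean value of 10 or more, 1 row per gene, ordered by subcomplex, with implied 95% intervals as bars. Filled points mark the 6 genes with an adjusted p under 0.05, which all lie left of 0, and the dashed line is the median of the 2200 genes of like level, at -0.05.

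Most of these calls moved with the centring of the fold changes. The 2080 most abundant genes had a median log2 fold change of -0.08, and with this set to 0 only Psmd11 of the 6 passed (adjusted p = 0.0173), against a background of 3.76% called lower. With the median of genes of the same length and level subtracted, again only Psmd11 passed (adjusted p = 0.0179), against 7.3% of genes called lower. The first of these choices moved all genes from 734 higher and 925 lower calls to 1168 and 625, so the higher share of calls went from 44.2% to 65.1%. With genes of a mean of 10 or more centred on 0, the 6 genes stayed the only calls, against 5.89% of genes lower and 4.19% higher. At an adjusted p under 0.01, Psmd11 and Psma1 were lower and none higher, against 3.37% and 2.49% of all genes. At an adjusted p under 0.1, 8 proteasome genes were lower and 2 higher, against 7.3% and 6.07%. With p adjusted over genes of a mean of 10 or more, 6 were lower and 2 higher (Psmb10 and Psmf1), against 8.17% and 6.45%.

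**Figure D2:**
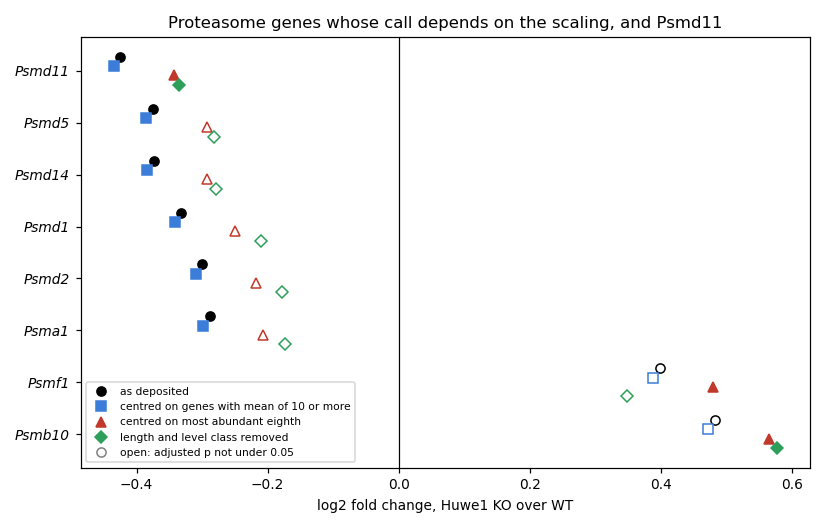
Log2 fold change of Huwe1 KO over WT (horizontal axis) for 8 proteasome genes (rows) as deposited, with 2 centrings and with the median of genes of the same length and level removed; filled symbols have an adjusted p under 0.05. Psmd11 is filled in every setting, the other lower genes become open in the last 2, and Psmb10 and Psmf1 are open as deposited.

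The 19S cap held 4 of the 6 genes called lower. In the authors' deposited table, of its 17 listed subunits 4 fell and none rose, 15 had a log2 fold change below 0, and the median was -0.18. Their summed value in Huwe1 KO was 87.8% of that in WT, compared with 95.7% for the 2200 genes of like level. Of the 17, 88.2% lay below 0, beside 58.5% of the genes of like level. The 4 calls are 23.5% of the 17, beside 5.56% of all genes and 11.7% of the genes of like level called lower. Those of Psmd14, Psmd1 and Psmd2 were lost, and that of Psmd11 was not, with the 2080 most abundant genes centred on 0 and with the median of genes of the same length and level removed. The median of the 17 was -0.10 and -0.06 in these settings.

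In the lid, which removes ubiquitin chains from substrates, Psmd11 and Psmd14 fell. Psmd11 (Entrez ID 69077; chromosome 11, 80428615 to 80473248 in GRCm38), a scaffold subunit also known as Rpn6, had deposited group values of 1341 in WT and 999 in Huwe1 KO. That is 74.5% of WT, with a log2 fold change of -0.42 (interval -0.63 to -0.22, adjusted p = 0.00171 in DESeq2), the lowest of the 31 constitutive subunits. Psmd14 (Entrez ID 59029; chromosome 2, 61711694 to 61800376), the deubiquitinase Rpn11 of the lid, went from 709.9 to 548 in the deposited table (log2 fold change -0.37, interval -0.61 to -0.14, adjusted p = 0.026). The other 6 lid genes did not pass. Their deposited log2 fold changes ran from -0.26 for Psmd3 (1838 in WT, 1532 in Huwe1 KO) to 0.02 for Psmd6 (876 and 886), with Psmd7 at -0.18, Psmd13 at -0.12, Psmd8 at -0.09 and Psmd12 at -0.07.

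The base holds the ATPase ring and the scaffold and receptor subunits. Both large scaffolds fell in the authors' deposited table. Psmd1 (Rpn2; Entrez ID 70247; chromosome 1, 86064619 to 86139295) went from 2214 to 1759 (log2 fold change -0.33, interval -0.56 to -0.10, adjusted p = 0.045 in DESeq2). Psmd2 (Rpn1; Entrez ID 21762; chromosome 16, 20651122 to 20663414) went from 2242 to 1822 (log2 fold change -0.30, interval -0.47 to -0.13, adjusted p = 0.0103). The ubiquitin receptor Psmd4 (Rpn10) stood at 1861 and 1615 and did not pass (log2 fold change -0.20, adjusted p = 0.232). None of the 6 ATPase genes passed in the authors' deposited DESeq2 result, and 2 had an unadjusted p under 0.05. Psmc1 was lowest, at 1456 in WT and 1182 in Huwe1 KO (log2 fold change -0.30, adjusted p = 0.082), and Psmc3 highest, at 1715 and 1761 (log2 fold change 0.04). In between lay Psmc4 (-0.23), Psmc6 (-0.14), Psmc5 (-0.13) and Psmc2 (-0.05), as deposited log2 fold changes.

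The constitutive 20S core moved less in number of calls. Among its 14 genes the authors' deposited table has 1 that fell and none that rose, 11 lay below 0, and the median log2 fold change was -0.13, or -0.044 with the 2080 most abundant genes centred on 0 and -0.03 with the median of genes of the same length and level removed. The call is 7.14% of the 14, beside 11.7% of the genes of like level and 5.56% of all genes called lower, and it was lost in both of these settings. As deposited, 78.6% of the 14 lay below 0, beside 58.5% of the genes of like level. Whether the cap and the core differ was not tested. The 1 call was Psma1 (Entrez ID 26440; chromosome 7, 114264550 to 114276116), an alpha ring subunit, which went from 1315 to 1077 (log2 fold change -0.29, interval -0.45 to -0.13, adjusted p = 0.00701 in DESeq2). The other alpha subunits did not pass, from Psma6 with 1288 and 1117 (log2 fold change -0.21, adjusted p = 0.172) to Psma4 with 2021 and 2095 (log2 fold change 0.05) in the deposited table. Psma7 (-0.15), Psma2 (-0.13), Psma3 (-0.12) and Psma5 (-0.11) lay between them on the log2 scale. In the beta ring none of 7 passed in DESeq2's deposited result, and 1, Psmb2, had an unadjusted p under 0.05. Psmb2 stood at 1254 in WT and 1077 in Huwe1 KO (log2 fold change -0.22, adjusted p = 0.149) and Psmb6 at 2041 and 2084 (log2 fold change 0.03). Psmb1 (-0.11), Psmb3 (-0.03) and Psmb4 (0.03), which have no protease activity, were the other structural members, as deposited log2 fold changes.

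These levels bound the changes of the constitutive particle. Across its 31 genes the value in Huwe1 KO ran from 74.5% to 103.7% of WT, and the 95% intervals of the log2 fold change lay between -0.63 and 0.29. The interval lay below 0 in 12 genes and held 0 in 19. An interval without 0 is the same as an unadjusted p under 0.05, which 739 of the 2200 genes of like level had in either direction. None reached a 2-fold change in either direction. Implied standard errors ran from 0.08 to 0.15. Changes well above 1 such error could still miss a call, as Psmc1 did at a log2 fold change of -0.30 with an SE of 0.12.

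Promoter sequence is shown for Psmd11 and Psmd14, the 26S subunits with the lowest log2 fold changes, and for Psma1, the 20S gene that fell, because genes of this particle are known to share regulators such as NRF1 (Nfe2l1), which binds antioxidant response elements. The 250 bases before the start, 5′ to 3′ on the gene's strand, are from RefSeq (GRCm38.p6), at chr11:80428365-80428614 (plus strand), chr2:61711444-61711693 (plus strand) and chr7:114276117-114276366 (minus strand). Capitals mark matches to any of 4 motifs searched on both strands, which are TGANNNNGC (the core of the antioxidant response element), CCAAT (the CCAAT box), GAAA and GAAA spaced by NN (an interferon-response element) and TTCNNNGAA (the gamma-activated site).
Psmd11: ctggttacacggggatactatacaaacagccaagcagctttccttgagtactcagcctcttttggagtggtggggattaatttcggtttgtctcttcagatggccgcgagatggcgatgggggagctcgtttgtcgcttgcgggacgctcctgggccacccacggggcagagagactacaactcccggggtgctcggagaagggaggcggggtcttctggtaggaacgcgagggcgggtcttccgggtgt
Psmd14: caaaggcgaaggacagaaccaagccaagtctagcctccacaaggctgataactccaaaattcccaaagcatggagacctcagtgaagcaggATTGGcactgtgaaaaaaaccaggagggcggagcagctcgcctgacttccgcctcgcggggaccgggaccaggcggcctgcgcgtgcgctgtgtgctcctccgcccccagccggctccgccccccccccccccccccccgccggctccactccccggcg
Psma1: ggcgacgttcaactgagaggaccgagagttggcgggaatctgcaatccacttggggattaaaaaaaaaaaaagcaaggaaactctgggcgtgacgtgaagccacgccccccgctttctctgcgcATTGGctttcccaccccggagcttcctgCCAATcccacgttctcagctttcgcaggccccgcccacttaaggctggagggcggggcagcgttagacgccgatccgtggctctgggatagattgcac
The window of Psmd11 held none of the 4 motifs, that of Psmd14 held 1 CCAAT box 159 bases before the start, and that of Psma1 held 2 CCAAT boxes, 126 and 98 bases before it. Of the 42 proteasome genes with a promoter window, 17 (40.5%) held the antioxidant response element core, against 35.2% of all 32851 windows. Among the 6 genes that fell, 2 of 6 held it (Psmd1 and Psmd5), as 33.3%. A CCAAT box was found in 15 of the 42 (35.7%) against 33.8% of all windows. The other motifs are given with the immunoproteasome genes.

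The immunoproteasome subunits pointed the other way, and none passed. The authors' deposited table gives all 3 a value above that of WT, 0 of them called in DESeq2, and the median of their log2 fold changes was 0.41, and 1 of them, Psmb10, had an unadjusted p under 0.05. Psmb10 (Entrez ID 19171; chromosome 8, 105935728 to 105938392), the immune form of beta 2, stood at 472 in WT and 659.6 in Huwe1 KO, a log2 fold change of 0.48 (interval 0.14 to 0.83, adjusted p = 0.0546). It passed with the 2080 most abundant genes centred on 0 (adjusted p = 0.0168, with 7.02% of genes called higher) and with the median of genes of the same length and level removed (adjusted p = 0.0116, with 6.4% called higher). Psmb8 (Entrez ID 16913; chromosome 17, 34198195 to 34201454), the immune form of beta 5, stood at 506 and 673 in the deposited table (log2 fold change 0.41, interval -0.13 to 0.95, adjusted p = 0.444). Psmb9 (Entrez ID 16912; chromosome 17, 34182030 to 34187330), the immune form of beta 1, stood at 373 and 385 (log2 fold change 0.04, interval -0.57 to 0.66, adjusted p = 0.969). Psmb8 and Psmb9 lie 10864 bases apart, with the antigen transporter gene Tap1 between them and Tap2 nearby. Psmb9 shares 212 exon bases with Tap1 on the opposite strand, so without a stated strand its reads cannot be told apart from those of Tap1 there.

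Each immune subunit takes the place of a catalytic subunit of the constitutive core, so the pairs were set side by side per length. In WT, Psmb8 lay at 414 normalized reads per kilobase and its counterpart Psmb5 at 1562, a ratio of 0.265, and in Huwe1 KO at 550.4 and 1377, a ratio of 0.400. Psmb10 lay at 372 per kilobase beside Psmb7 at 1784 in WT (ratio 0.208), and at 519 beside 1596 in Huwe1 KO (ratio 0.325). For Psmb9 and Psmb6 the ratio was 0.235 in WT and 0.237 in Huwe1 KO. The ratio was thus higher in Huwe1 KO by 0.59 on the log2 scale for the beta 5 pair and by 0.64 for the beta 2 pair, and by 0.01 for the beta 1 pair; these changes of ratio were not tested. None of the constitutive partners was called in the authors' table, which gives deposited log2 fold changes of -0.18 for Psmb5 (1360.3 to 1199.7), -0.16 for Psmb7 (1729 to 1546) and 0.03 for Psmb6.

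**Figure D3:**
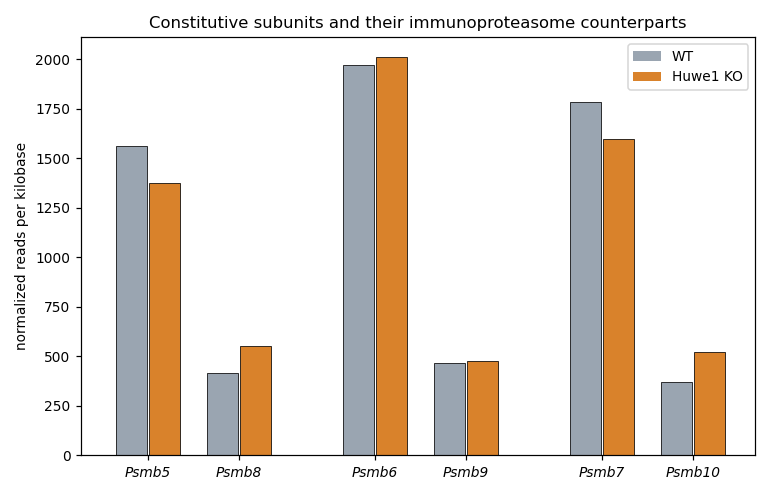
Normalized reads per kilobase (vertical axis) of each catalytic constitutive subunit and of the immunoproteasome subunit that replaces it, with WT in grey and Huwe1 KO in orange; bars are single group values with no error. Psmb8 and Psmb10 are taller and Psmb5 and Psmb7 shorter in Huwe1 KO, while Psmb9 differs little (463 and 477).

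The promoters of the beta 5 pair are shown because the values of the pair point in opposite directions, at chr14:54617996-54618245 (minus strand) and chr17:34197945-34198194 (plus strand) in GRCm38.p6, with the same marks.
Psmb5: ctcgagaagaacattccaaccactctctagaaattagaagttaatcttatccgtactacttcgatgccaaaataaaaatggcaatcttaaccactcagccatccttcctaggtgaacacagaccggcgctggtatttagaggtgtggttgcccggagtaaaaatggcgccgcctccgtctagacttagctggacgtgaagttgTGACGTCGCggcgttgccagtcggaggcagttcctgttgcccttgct
Psmb8: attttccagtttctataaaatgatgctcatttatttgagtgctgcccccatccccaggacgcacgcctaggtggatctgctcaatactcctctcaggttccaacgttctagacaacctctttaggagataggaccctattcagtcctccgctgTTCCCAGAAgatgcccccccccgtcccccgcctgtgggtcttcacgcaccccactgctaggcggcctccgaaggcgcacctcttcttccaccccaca
The window of Psmb5 held an antioxidant response element core 47 bases before the start, and that of Psmb8 a gamma-activated site 97 bases before it. A gamma-activated site was found in 2 of the 42 proteasome promoters (Psmb8 and Psmg1; 4.76%) and in 7.02% of all windows. An interferon-response element was found in 3 of the 42 (Psmb3, Psmd4 and Psmd9; 7.14%) and in 2.98% of all windows.

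Leukocytes express immunoproteasome subunits strongly, so their markers are given beside these values. The authors' deposited table places 15 of 18 leukocyte markers above 0 and 3 (16.7%) below, while 46.9% of all genes lay below 0. Of the 18, 1 (5.56%) passed, the neutrophil gene S100a9 (25.6 to 79.1, adjusted p = 0.0163 in DESeq2), beside 4.41% of all genes called higher. Of the 3 neutrophil markers 2 lay above 0 and Ly6g lay below (7.52 to 5.02). The summed value of the 18 markers was 1708 in WT and 2108 in Huwe1 KO, with the macrophage genes Clec4f (598) and Csf1r (491) the largest in WT. Ptprc, the marker shared by all leukocytes, stood at 126 and 154 (adjusted p = 0.747). Their part in the values of Psmb8 and Psmb10 was not tested. Among 14 other genes of class I antigen presentation, which use the peptides the immunoproteasome makes, none passed in DESeq2's deposited result, 10 lay below 0 and the median log2 fold change was -0.10; 2 had an unadjusted p under 0.05. These were H2-K1, a class I heavy chain (22918 to 17991, adjusted p = 0.082), and the chaperone Canx (3682 to 2821, adjusted p = 0.125). Tap1 had a log2 fold change of -0.27 and Tap2 of 0.07, and neither passed.

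Among activators and inhibitors none passed. Psme1 and Psme2, which form the interferon-inducible cap PA28, stood at 1815 and 1199 in WT and at 1873 and 1353 in Huwe1 KO in the authors' deposited table, with log2 fold changes of 0.05 and 0.17 (intervals -0.28 to 0.37 and -0.12 to 0.47). Psme3, the nuclear PA28 gamma, went from 1211 to 1053 (log2 fold change -0.20, interval -0.36 to -0.04, adjusted p = 0.0932 in DESeq2). Psme4, the activator PA200, stood at 1300.3 and 1155 (log2 fold change -0.17, adjusted p = 0.561). Psmf1 (Entrez ID 228769; chromosome 2, 151716062 to 151744199), which encodes the inhibitor PI31, lay higher, at 598 and 788 (log2 fold change 0.40, interval 0.12 to 0.68), and narrowly missed the threshold (adjusted p = 0.0541). It passed with the 2080 most abundant genes centred on 0 (adjusted p = 0.0125) and not with the median of genes of the same length and level removed (adjusted p = 0.089). Psmf1, Psmb10, Psmc1 and Psme3 were the 4 proteasome genes with an adjusted p between 0.05 and 0.1, while Psmd1 lay just inside the threshold.

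Of 7 assembly chaperones 1 fell, beside 5.56% of all genes called lower. Psmd5 (Entrez ID 66998; chromosome 2, 34852087 to 34870965), which helps assemble the ATPase ring and leaves before the 26S particle is complete, had deposited values of 558 in WT and 431 in Huwe1 KO (log2 fold change -0.38, interval -0.62 to -0.13, adjusted p = 0.0299 in DESeq2). The call of Psmd5 was lost with the 2080 most abundant genes centred on 0 (adjusted p = 0.117). It was also lost with the median of genes of the same length and level removed (adjusted p = 0.119). The other base chaperones, Psmd9 (549.8 to 492) and Psmd10, also known as gankyrin (125 to 119), had log2 fold changes of -0.16 and -0.07 and did not pass. The 4 chaperones of the 20S core were not called in DESeq2's deposited result either, and 0 had an unadjusted p under 0.05. They ran from Psmg1 with 325 and 277 (log2 fold change -0.23, adjusted p = 0.354) through Psmg2 (-0.22) and Psmg4 (-0.01) to Psmg3 with 155 and 162 (log2 fold change 0.06).

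The last 4 rows were low. In the authors' deposited table Psma8, the alpha subunit of testis, stood at 20.9 in WT and 10.2 in Huwe1 KO (log2 fold change -1.04, interval -1.95 to -0.12, adjusted p = 0.159 in DESeq2). Psmb11, the beta subunit of thymus, stood at 2.65 and 3.09, and Psme2b, a copy of Psme2 with 99.4% identity over 794 bases, at 3.51 and 4.04. Psmc3ip, a recombination factor whose symbol fits the rule but which is no proteasome subunit, stood at 3.30 and 5.88. None of the 4 passed.

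By the median per length, core genes lay above cap genes in both groups, and immunoproteasome and chaperone genes lower. In WT the median was 1554 normalized reads per kilobase for the 14 constitutive 20S genes (712 to 2187) and 778 for the 17 genes of the cap (455 to 1390). In Huwe1 KO these medians were 1384 and 707, and the cap genes ran from 351 to 1257. In both groups the range of the cap overlapped that of the core and that of the immunoproteasome subunits. The immunoproteasome subunits followed, from 372 to 463 per kilobase in WT and from 477 to 550.4 in Huwe1 KO, and then the 20S chaperones with a median of 192 in WT and 195 in Huwe1 KO and the base chaperones with 211 and 189. Neighbouring genes within a tier have no error per group and their order was not tested.

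**Figure D4:**
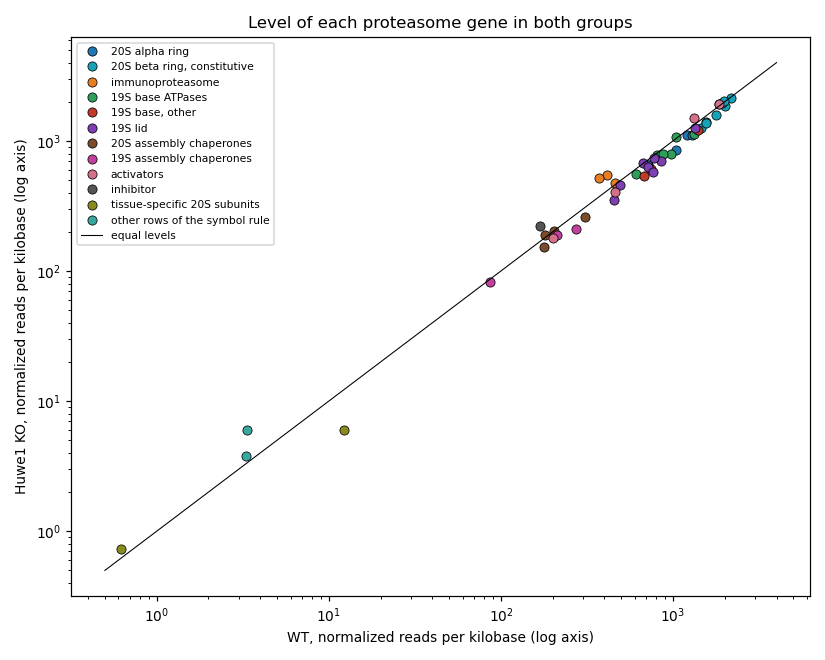
Level of each of the 50 proteasome genes in WT (horizontal) and Huwe1 KO (vertical), in normalized reads per kilobase on log axes, coloured by subcomplex; the line marks equal levels. Most constitutive subunits lie towards the top and just under the line, the immunoproteasome subunits lie on or above it, and the 4 lowest genes stand far below the rest.

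Genes that serve the proteasome were read beside its subunits. The authors' deposited table has 3 of 21 measured cofactors and regulators that fell and none that rose, 18 lay below 0, and the median log2 fold change was -0.23, against 0.02 over all genes and -0.05 over genes in the level range of the constitutive subunits. Of the 21, 85.7% lay below 0, beside 58.5% of genes in that range and 46.9% of all genes. The 3 calls are 14.3% of the 21, beside 11.7% of genes in that range and 5.56% of all genes called lower, though not all of the 21 lie in that range. Among them the segregase Vcp, which extracts ubiquitinated proteins for degradation, went from 5814 to 4424 (log2 fold change -0.39, adjusted p = 0.00218 in DESeq2). Rad23b, a shuttle that carries ubiquitinated proteins to the cap, went from 4118 to 3016 (log2 fold change -0.45, adjusted p = 0.00216). Zfand2a, an arsenite-inducible proteasome-associated protein, went from 197 to 148 (log2 fold change -0.42, adjusted p = 0.0342), a call lost with the 2080 most abundant genes centred on 0 (adjusted p = 0.113). Nfe2l1, the factor known to raise proteasome genes when the proteasome is impaired, stood at 1822 and 1596 and did not pass (log2 fold change -0.19, adjusted p = 0.549). The cap's ubiquitin receptor Adrm1 (2008 to 1707, log2 fold change -0.23), its deubiquitinase Usp14 (669 to 558, log2 fold change -0.26) and the 20S maturation factor Pomp (1618 to 1588, log2 fold change -0.03) did not pass either.

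Reads of some of these genes may be shared with other genes. Of the 50, 10 had a stretch of at least 300 bases with at least 95% identity in a transcript from elsewhere in the genome, mostly processed pseudogenes, among them Psmd2 (2726 bases, 96.4% identity) and Psmd11 (1501 bases, 97.9%). Exons of 9 overlapped another gene of the table, such as Psmd1 with Htr2b over 252 bases and Psmb7 with Nek6 over 405. The sources used here do not say how such reads were assigned, and their part in the values was not tested.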

How the data were processed

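Per the labels' protocols, column-purified RNA of whole liver from 4 WT and 4 Huwe1 KO mice went to a commercial sequencing provider. The submitters' processing notes name mm10 and DESeq2; the sources used here state neither its version nor the aligner, counter or filters. Each gene has 1 deposited expression signal per group, normalized for depth as far as the values show. Per the file headers the log2 column sets KO over WT; it matches the log2 ratio of the 2 expression columns to within 4.71e-08. Deposited p-value columns give raw and adjusted p; adjusting the raw p by Benjamini-Hochberg across the 16640 genes matched the deposited adjusted p to within 1.74e-06. The 707 genes with a mean value under 0.14 have absolute log2 fold changes of only 0.11 to 0.12, so folds at this level are held near 0; shrinkage at higher levels was not measured. Replicates could not be compared, and p-values measure only the spread between these samples.

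With group values only, the count model of the planned design could not be fitted. Calls are the authors' adjusted p under 0.05. The SE is the size of the log2 fold change divided by the normal score of the deposited two-sided p, which assumes a Wald test, and 95% intervals follow from it. Both centrings and the removal of the median within 5 classes of length and 10 of mean value (12309 genes with a mean of 10 or more) used this SE and a new adjustment; the steps were tested on simulated data. Levels per kilobase use the deposited length. All 50 genes matched RefSeq (GRCm38) by Entrez ID, and 1 listed cofactor, Paaf1, had no match. Copies were searched with BLAST 2.17.0 in GENCODE transcripts. For 41 of 45 promoter windows, the first transcribed bases after the window lay in a GENCODE transcript of the gene. The named genes are all members, with full values for those called, the catalytic and immune pairs, activators, the inhibitor and the highest and lowest of each subcomplex. Of the listed related genes those called are named, and for antigen presentation, where none was called, those with the largest changes. Adrm1, Usp14, Pomp, Nfe2l1, Tap1, Tap2, Ptprc, Alb, Tat and Apob were chosen after their values were seen, as were the promoters shown. 1 planned list of related genes is not reported here. Members and lists were chosen with earlier results of these data known. Versions were scipy 1.17.1, pandas 2.3.3, matplotlib 3.10.9, numpy 2.4.6 and Python 3.11.15.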

Additional observations from a re-analysis of the deposited data

How the results depend on the processing

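The precision is limited to 1 value per group, so livers could not be left out in turn. No paired analysis was possible because the deposited columns carry no replicate numbers. The count of 6 lower proteasome genes was 2 at an adjusted p under 0.01 (Psma1 and Psmd11), and 1 both with the most abundant genes centred on 0 and with the median of genes of the same length and level removed; the last setting was chosen after seeing the data. The count of 0 higher genes was 2 (Psmb10 and Psmf1) at an adjusted p under 0.1, when adjusted over genes with a mean of 10 or more, and with the most abundant genes centred on 0, and 1 with the length and level median removed. For antigen presentation, 1 gene (H2-K1) was lower at an adjusted p under 0.1. Removing the length and level median moved the median log2 fold change to -0.031 for the alpha ring, -0.18 for Psmd1, Psmd2 and Psmd4, -0.062 for the 19S cap and -1.23 for the tissue-specific subunits, which was -1.04 with genes of a mean of 10 or more, where Psma8 alone remains. Per residue of the encoded protein, the ratio of Psmb8 to Psmb5 was 0.356 in WT and 0.537 in Huwe1 KO, and that of Psmb10 to Psmb7 was 0.277 and 0.433, each ratio higher than per kilobase. Of the 52 alternative medians, 5 moved by more than the implied standard error. The cause was not tested.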

Other observations

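The immunoproteasome subunits had larger implied standard errors than the constitutive ones. These were 0.17 for Psmb10, 0.28 for Psmb8 and 0.31 for Psmb9, against a median of 0.11 and a range of 0.08 to 0.15 over the 31 constitutive subunits. The constitutive subunits have mean values from 629 to 2063 and these 3 lie below that range, at 565.8 for Psmb10, 589.6 for Psmb8 and 379 for Psmb9, so the sets are not of like level. Tap1, which lies beside Psmb9, had 0.27. The 18 leukocyte markers had a median of 0.48, most of them at lower levels. Of these, Clec4f had 0.34 at a mean value of 685 and Csf1r had 0.45 at 529, which are not below all 3 immunoproteasome genes.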
